A study of Mus musculus with 15 samples.

Results

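The genes of the mitochondrial respiratory chain were followed through the withdrawal of kinase inhibitors and LIF from mouse embryonic stem (ES) cells. The set held 95 of the 19937 genes that a probe set with exactly 1 symbol represents on the array. A gene belonged to it when its symbol begins with Ndufa, Ndufb, Ndufc, Ndufs, Ndufv, Sdha, Sdhb, Sdhc, Sdhd, Uqcr, Cox4, Cox5, Cox6, Cox7, Cox8 or Atp5, or is Cyc1 or Cycs. The rule uses symbols and no measured difference. Complex I (NADH dehydrogenase) had 41 members, complex II (succinate dehydrogenase) 8, complex III (the cytochrome bc1 complex) 9, complex IV (cytochrome c oxidase) 19 and complex V (ATP synthase) 17, and Cycs encodes the mobile carrier cytochrome c. The symbols also took in 12 genes classed here under assembly. They are the assembly factors Ndufaf1 to Ndufaf7 and Sdhaf1 to Sdhaf4, and Cox7a2l, which takes part in joining complexes III and IV.

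Total RNA came from bulk cultures of 1 cell line, a 2i-adapted ES cell line (Ctnnb1-BioFLneo;BirA) whose Ctnnb1 gene, which encodes beta-catenin, carries a knocked-in biotin-FLAG tag and which also has the biotin ligase BirA. Every group carried these alleles and had been grown with CHIR99021, which inhibits GSK3, with PD0325901, which inhibits MEK, and with the cytokine LIF. The 2iLIF group stayed in 3 µM CHIR99021, 1 µM PD0325901 and LIF as a long-term culture. For the last 24 h the 2i group lacked LIF but kept both inhibitors, the CHIR group kept only CHIR99021 at 3 µM, the PD03 group kept only PD0325901 at 1 µM, and the DMSO group kept neither inhibitor nor LIF. Each group had 3 arrays. Separate cultures are not stated for the 3, and the p-values therefore cover the spread among these arrays, which may be technical. The median signal of 5 ES cell genes (Pou5f1, Sox2, Nanog, Zfp42 and Utf1) lay between 11.57 and 12.06 in the 5 groups, against 6.95 to 7.06 for 6 fibroblast and feeder genes, 6.12 to 6.29 for 5 extra-embryonic endoderm genes and 6.69 to 7.50 for 4 neural progenitor genes. The ES cell genes were not level. From 2iLIF to DMSO, Nanog fell from 12.72 to 11.74 and Zfp42 from 10.66 to 9.82, while Utf1 rose from 11.57 to 12.51. Pou5f1 (12.51 and 12.54) and Sox2 (11.53 and 11.41) changed less. The median of the neural list was highest in PD03 and lowest in 2iLIF, and its part in the results was not tested. Of its genes only Pax6 was highest in PD03 (mean 8.19) and lowest in 2iLIF (6.54). Sox1 (8.39) and Zic1 (5.63) were highest in DMSO, and Neurog2 (6.85) in 2iLIF.

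Electrons from NADH enter the chain at complex I and electrons from succinate at complex II. Ubiquinone carries them to complex III and cytochrome c carries them to complex IV, which reduces oxygen. The proton gradient built on the way drives ATP synthesis by complex V. Nearly all subunits are nuclear genes, a few are encoded in mitochondrial DNA, and several complex IV subunits have isoforms that are largely restricted to heart and skeletal muscle, testis, lung or low oxygen. Nuclear respiratory factor 1 (NRF1), GABP, YY1 and estrogen-related receptors are known to bind promoters of such genes.

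A promoter sequence in the RefSeq table (build GRCm38.p6, 250 bases before to 50 bases after the start) was found for 78 of the 95 members. The letters of NRF1 (GCGC, any base, then TGCGC), searched on both strands, were present in 20 of the 78 promoters, which is 25.6%, against 5.19% of the 27025 promoters in the table and 7.87% of the 15562 promoters of genes on the array. The YY1 letters AAGATGGC were found in 10 members, or 12.8%, against 3.19% of all promoters and 3.77% of array genes. The GABP letters CCGGAAGNG were found in 5 members (6.41%, against 4.56% and 6.61%), the letters TNAAGGTCA of estrogen-related receptors in 2 (2.56%, against 1.43% and 1.16%), the Myc and Max letters CACGTG in 6 (7.69%, against 8.09% and 9.52%) and the NF-Y letters CCAAT in 34 (43.6%, against 41.1% and 41.7%). A promoter was counted once per motif, and the NRF1 letters can match both strands at the same place. The median GC content of the promoters was 58.7% for the members, 57.7% for array genes and 52.7% for the whole table. Of the 53 members with a promoter that were higher in 2iLIF than in DMSO, 15 held the NRF1 letters, as did 5 of the other 25. A match of letters is a description of the window and shows no binding.

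The 250 bases before the start are shown for 7 genes chosen after their values were seen. They are Sdha, Sdhd and Atp5k, whose signal was higher on every array with CHIR99021 than on every array without it, the 3 genes of the same ATP synthase subunit c, of which Atp5g3 alone passed the threshold in any comparison, and Cox7a1, which was higher on every array with PD0325901. Capitals mark matches to the NRF1 letters in Sdha, Sdhd, Atp5k and Atp5g2 and to the estrogen-related receptor letters in Atp5g3, in either strand. Atp5g1 and Cox7a1 held no match to the NRF1, GABP, YY1 or estrogen-related receptor letters in this window. Atp5g3 also held NRF1 letters from 13 to 22 bases after the start, outside the bases shown. The windows are chr13:74350241-74350490 (minus strand) for Sdha, chr9:50603850-50604099 (minus) for Sdhd, chr5:108434400-108434649 (minus) for Atp5k, chr11:96075632-96075881 (minus) for Atp5g1, chr15:102671048-102671297 (minus) for Atp5g2, chr2:73911327-73911576 (minus) for Atp5g3 and chr7:30183921-30184170 (plus) for Cox7a1. They are written in the direction of the gene.
Sdha: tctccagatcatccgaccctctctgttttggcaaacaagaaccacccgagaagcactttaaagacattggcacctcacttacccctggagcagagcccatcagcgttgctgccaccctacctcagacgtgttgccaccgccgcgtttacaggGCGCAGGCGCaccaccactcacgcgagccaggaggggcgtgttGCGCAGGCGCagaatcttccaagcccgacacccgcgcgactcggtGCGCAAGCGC
Sdhd: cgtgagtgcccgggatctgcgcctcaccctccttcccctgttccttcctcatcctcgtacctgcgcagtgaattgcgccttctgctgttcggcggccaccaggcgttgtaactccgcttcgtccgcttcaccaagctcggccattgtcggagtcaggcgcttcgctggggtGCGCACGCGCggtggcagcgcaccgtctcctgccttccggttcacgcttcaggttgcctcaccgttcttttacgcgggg
Atp5k: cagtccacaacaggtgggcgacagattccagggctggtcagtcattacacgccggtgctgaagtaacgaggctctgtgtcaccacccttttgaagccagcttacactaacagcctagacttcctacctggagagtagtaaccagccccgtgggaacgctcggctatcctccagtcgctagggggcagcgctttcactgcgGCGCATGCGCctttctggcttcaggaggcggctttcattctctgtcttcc
Atp5g1: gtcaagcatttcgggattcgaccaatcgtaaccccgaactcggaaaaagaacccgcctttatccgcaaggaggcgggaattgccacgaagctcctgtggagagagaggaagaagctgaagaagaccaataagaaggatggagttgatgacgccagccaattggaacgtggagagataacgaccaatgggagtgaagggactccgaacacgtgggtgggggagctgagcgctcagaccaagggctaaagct
Atp5g2: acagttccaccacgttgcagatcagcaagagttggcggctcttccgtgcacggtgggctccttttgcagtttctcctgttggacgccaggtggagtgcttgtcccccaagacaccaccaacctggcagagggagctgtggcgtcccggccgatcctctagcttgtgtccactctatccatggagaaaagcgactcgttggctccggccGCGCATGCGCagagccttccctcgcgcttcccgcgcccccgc
Atp5g3: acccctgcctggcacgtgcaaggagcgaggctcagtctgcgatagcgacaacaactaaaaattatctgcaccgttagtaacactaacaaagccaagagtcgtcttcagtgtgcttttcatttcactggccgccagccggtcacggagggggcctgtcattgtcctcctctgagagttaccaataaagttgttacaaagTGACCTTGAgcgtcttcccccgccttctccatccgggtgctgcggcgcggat
Cox7a1: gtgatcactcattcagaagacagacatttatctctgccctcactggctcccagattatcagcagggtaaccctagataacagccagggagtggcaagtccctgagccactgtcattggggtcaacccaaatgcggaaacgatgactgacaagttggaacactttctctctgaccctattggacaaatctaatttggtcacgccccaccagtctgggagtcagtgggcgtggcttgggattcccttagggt

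Respiratory chain genes had their highest signal in the cells kept in both inhibitors and LIF, and their lowest where CHIR99021 had been withdrawn. The highest of the 5 group means was that of 2iLIF for 64 of the 95 members, while 2iLIF held the highest mean for 24.4% of all genes. The lowest mean was that of DMSO for 47 members and that of PD03 for 35, against 24.1% and 20.1% of all genes. The median deviation of the 95 members from their own means was 0.091 ± 0.027 (SD, n = 3) in 2iLIF, 0.045 ± 0.020 in 2i, 0.006 ± 0.022 in CHIR, -0.067 ± 0.006 in PD03 and -0.064 ± 0.014 in DMSO, on the log2 scale. Arrays of the first 3 groups lay between -0.015 and 0.107 and arrays of PD03 and DMSO between -0.077 and -0.050, so the sets of arrays with and without CHIR99021 did not overlap. The differences were small for single genes: RMA log2 signals of the members differed between 2iLIF and DMSO by -0.44 to 0.81.

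**Figure D1:**
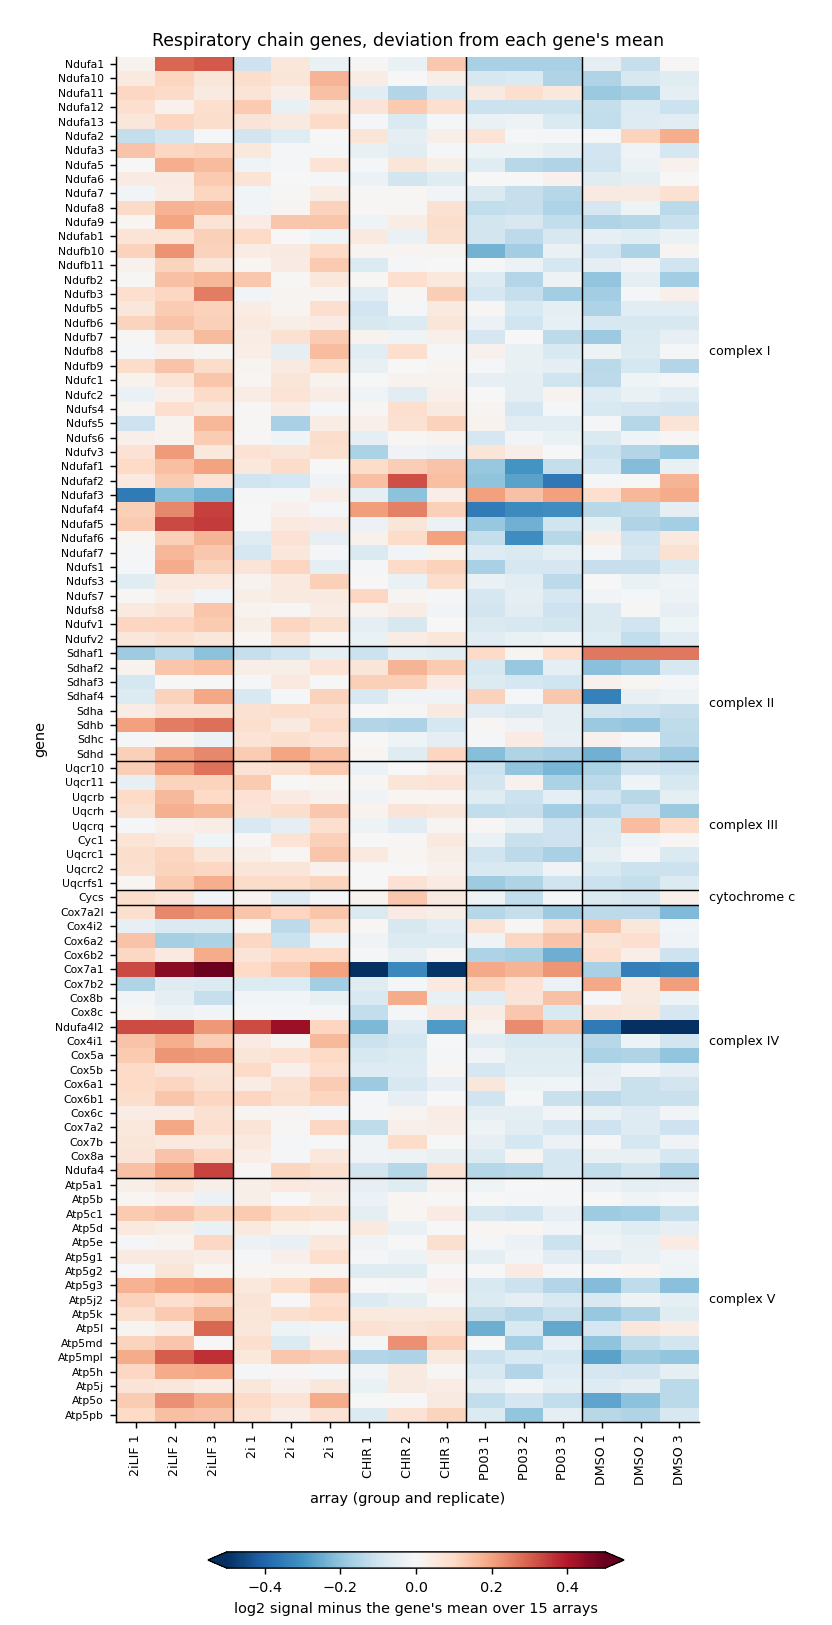
Heat map of the 95 members (rows, ordered by complex and role) on the 15 arrays (columns, by group and replicate), coloured by log2 signal minus the gene's own mean, with colours limited at both ends of the scale. Most rows run from red on the 2iLIF and 2i arrays to blue on the PD03 and DMSO arrays, and Sdhaf1, Ndufaf3 and Cox7b2 run the other way between 2iLIF and DMSO.

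**Figure D2:**
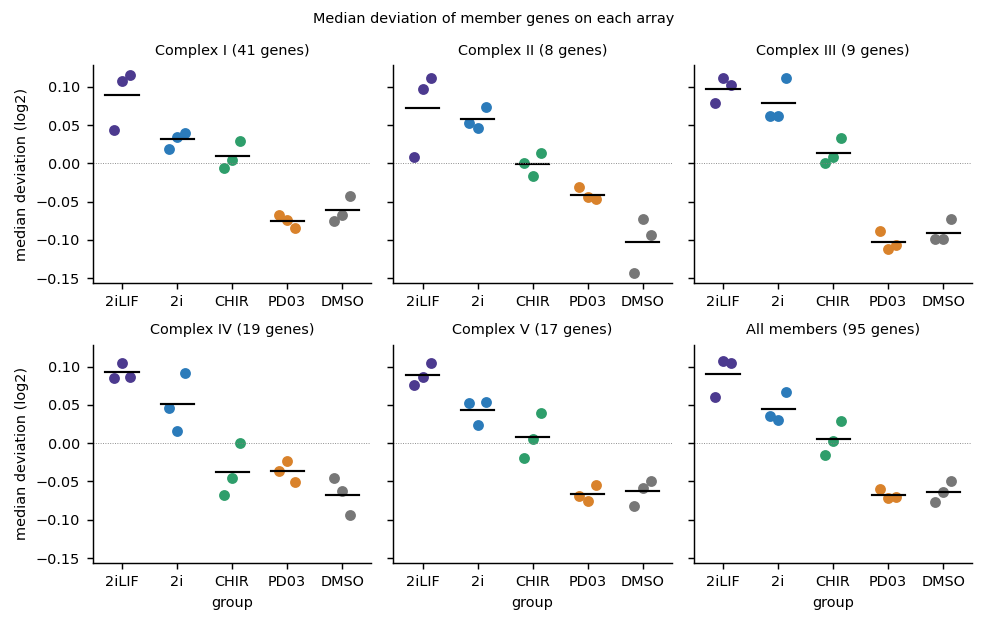
Median deviation of member genes from their own means (log2, vertical axis) on each array (points) by group, for each complex and for all 95 members, with a line at the mean of the 3 arrays. In complexes I, II, III and V every PD03 and DMSO array lies below every array of the other groups. In complex IV the CHIR arrays lie at -0.068 to 0.000 and overlap those of PD03 and DMSO.

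Each gene was tested with limma. To pass, it needed a p under 0.05 after Benjamini-Hochberg adjustment across the 19937 genes tested. Between 2iLIF and DMSO, 61 members were higher and 4 lower in 2iLIF, where 34.7% of all genes passed, 16.7% higher and 18.0% lower. Between 2i and DMSO, 42 were higher and 3 lower in 2i (25.5% of all genes passed, 13.6% higher and 11.9% lower). Between CHIR and DMSO, 24 were higher and 3 lower in CHIR (20.8% passed, 10.0% higher and 10.8% lower). Between PD03 and DMSO, 6 were higher and 5 lower in PD03, a share of 11.6% against 16.8% of all genes (8.67% higher and 8.15% lower). These 4 comparisons share the 3 DMSO arrays. The median difference of the members was 0.162 (2iLIF), 0.111 (2i), 0.069 (CHIR) and 0.006 (PD03) against DMSO, where the median over all genes was 0.006, 0.016, -0.006 and 0.004. The count for CHIR against DMSO depended on single CHIR arrays: it fell from 24 to 11 higher members without CHIR replicate 2 and to 13 without CHIR replicate 3. With only the arrays of CHIR and DMSO in the fit, 17 members passed in place of 27, and with each array centred on its median the median difference was 0.107 in place of 0.069.

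The effect of CHIR99021 was also measured in the presence of PD0325901, on arrays that share none with CHIR and DMSO. Between 2i and PD03, 40 members were higher and 3 lower in 2i, where 19.5% of all genes passed, 10.1% higher and 9.44% lower. The median difference was 0.111, against 0.009 over all genes. Without 2i replicate 3 the count of higher members was 24, and without PD03 replicate 1 it was 25. PD0325901 in the presence of CHIR99021 (2i against CHIR) gave 9 higher and 2 lower members, with 9.46% of all genes passing (5.70% higher and 3.76% lower). The 9 became 4 without 2i replicate 3, 5 without CHIR replicate 1 and 4 without CHIR replicate 2. LIF kept against LIF withdrawn (2iLIF against 2i) gave 7 higher and 1 lower, with 12.2% of all genes passing (4.56% higher and 7.66% lower). Without 2iLIF replicate 1 there were 11 higher members, and without 2iLIF replicate 2, 2iLIF replicate 3 or 2i replicate 1 there were 3, 3 and 4.

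A second count asked whether the 3 arrays of a group lay wholly above or below those of another group. Between 2iLIF and DMSO this held for 65 members above and 5 below (41.3% of all genes in either direction), and between 2i and DMSO for 66 and 5 (36.0%). Between 2i and PD03 it held for 67 above and 3 below (35.8%), and between CHIR and DMSO for 41 and 3 (31.9%). In these 4 comparisons members above far outnumbered members below, while PD03 against DMSO gave 17 above and 12 below (31.4%). Between 2i and CHIR it held for 37 above and 5 below (26.8%), and between 2iLIF and 2i for 22 and 3 (26.0%). Members above outnumbered members below in both of these as well.

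**Figure D3:**
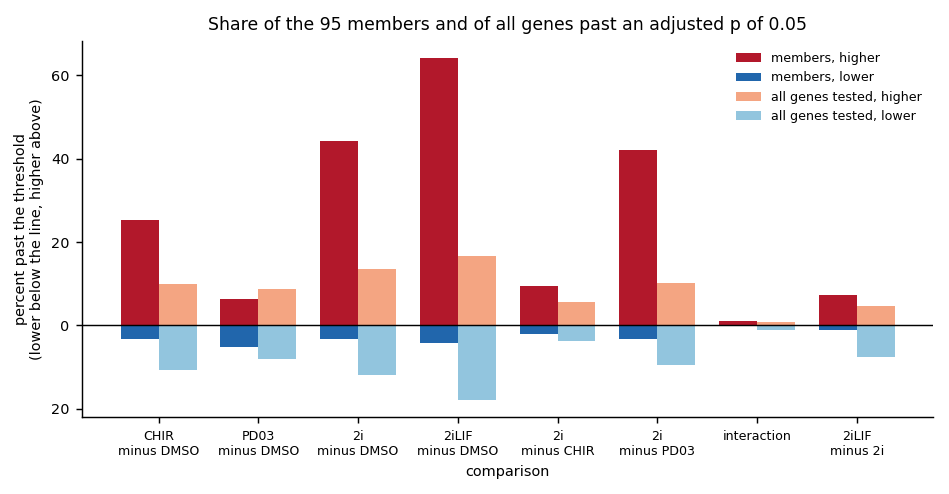
Percent of the 95 members (dark bars) and of all 19937 genes (light bars) past an adjusted p of 0.05 in each of 8 comparisons, higher in the first group above the line and lower below it. Members stand above the share of all genes on the higher side in 2iLIF minus DMSO (61 members), 2i minus DMSO (42), 2i minus PD03 (40) and CHIR minus DMSO (24), and below it on the lower side in these comparisons. Among genes with a mean signal of at least 9.64 (not drawn), the higher shares for CHIR minus DMSO are close, 23.9% of members and 19.6% of genes.

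Many members have strong signals, and genes with strong signals passed more often. Among the 4593 genes with a mean signal of at least 9.64, the lower quartile of the members and a limit chosen after the values were seen, 29.0% were higher in 2iLIF than in DMSO, compared with 69.0% of the 71 members at that level. The shares were 22.6% and 50.7% for 2i against DMSO and 19.0% and 45.1% for 2i against PD03. The shares for CHIR against DMSO were close to each other, at 19.6% and 23.9%. For PD03 against DMSO they were 13.3% and 7.04%, the lower share being that of the members. In bulk RNA, fewer cells that express a gene and less RNA per cell cannot be told apart.

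Taking the arrays by inhibitor, all 9 arrays with CHIR99021 lay above all 6 without it for 25 members, which is 26.3%, against 5.10% of all genes. They came from every complex: Ndufa8, Ndufa9, Ndufa10, Ndufa12, Ndufaf1, Ndufaf4, Ndufaf5, Ndufb2, Ndufc1 and Ndufs1 of complex I, Sdha, Sdhd and Sdhaf2 of complex II, Uqcr10, Uqcrb, Uqcrc1, Uqcrc2, Uqcrfs1 and Uqcrh of complex III, Cox6c and Cox7a2l of complex IV, and Atp5g3, Atp5h, Atp5k and Atp5o of complex V. Ndufaf3 and Sdhaf1 lay below on all 9, where 5.16% of all genes did. All 9 arrays with PD0325901 lay above all 6 without it for 6 members (6.32%, against 2.69% of all genes), namely Ndufa11, Ndufv3, Sdhb, Cox6a1, Cox7a1 and Ndufa4l2. No member lay below on all 9, against 2.15% of all genes. LIF was present on 3 of the 9 arrays with either inhibitor.

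Complex I is the largest complex of the chain, and its genes followed the common order of the groups. Of its 41 members, 29 were higher and 2 lower in 2iLIF than in DMSO, with a median difference of 0.162. Together 75.6% passed, against 34.7% of all genes. Among the 6 measured core subunits, 4 were higher (66.7%, against 16.7% of all genes). Ndufv1, the subunit that binds NADH and flavin, had signals of 11.39, 11.39 and 11.41 in 2iLIF and 11.31, 11.39 and 11.36 in 2i, but 11.23, 11.20 and 11.28 in CHIR, 11.21, 11.20 and 11.19 in PD03 and 11.21, 11.18 and 11.26 in DMSO. Only the cells with both inhibitors were high. The difference was 0.18 ± 0.04 (SE, adjusted p = 0.000627) between 2iLIF and DMSO and 0.15 ± 0.04 (adjusted p = 0.0049) between 2i and PD03, and the arrays of these groups did not overlap. For CHIR against DMSO it was 0.02, which did not pass. Ndufv2, an iron-sulfur subunit beside Ndufv1, was higher by 0.14 ± 0.04 in 2iLIF than in DMSO (adjusted p = 0.00456).

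Ndufs1, the iron-sulfur protein that passes electrons on from the NADH site, separated the arrays by CHIR99021 alone. Its signals were 10.75, 10.94 and 10.87 in 2iLIF, 10.82, 10.86 and 10.71 in 2i, 10.75, 10.85 and 10.87 in CHIR, 10.59, 10.67 and 10.67 in PD03, and 10.64, 10.64 and 10.68 in DMSO. Every array with the inhibitor was above every array without it. The difference of 0.20 ± 0.05 between 2iLIF and DMSO passed (adjusted p = 0.00822), but not without 2iLIF replicate 2 (0.0523). That of 0.17 ± 0.05 between CHIR and DMSO passed with an adjusted p of 0.0343, but had 0.114, 0.13, 0.0875 and 0.0963 without CHIR replicate 2, CHIR replicate 3, DMSO replicate 1 and DMSO replicate 2.

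Of the 28 accessory subunits of complex I, 22 were higher and 1 lower in 2iLIF than in DMSO (82.1% passed, against 34.7% of all genes). Ndufa9, which sits near the ubiquinone site, had signals of 11.32, 11.51 and 11.38 in 2iLIF, 11.35, 11.45 and 11.45 in 2i, 11.29, 11.35 and 11.40 in CHIR, 11.22, 11.23 and 11.19 in PD03 and 11.16, 11.17 and 11.20 in DMSO. The 2i arrays stood 0.24 ± 0.05 above DMSO (adjusted p = 0.00104) and 0.20 ± 0.05 above PD03 (adjusted p = 0.00522), with no overlap. Ndufa11 and Ndufv3 were the complex I genes that were higher in PD03 than in DMSO. Ndufa11, a membrane arm subunit, had 11.28, 11.32 and 11.29 in PD03 against 11.05, 11.07 and 11.19 in DMSO, a difference of 0.19 ± 0.04 (adjusted p = 0.0056). It stood at 11.34, 11.33 and 11.28 in 2iLIF, 11.30, 11.27 and 11.38 in 2i, and 11.18, 11.09 and 11.16 in CHIR, so the high arrays were those with PD0325901. Ndufv3, a small accessory subunit near the NADH site, was higher by 0.18 ± 0.05 in PD03 (adjusted p = 0.015), but did not pass without PD03 replicate 1 (0.0597) or DMSO replicate 3 (0.0641).

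The lower accessory subunit was Ndufa2, at 10.00, 10.03 and 10.11 in 2iLIF and 10.11, 10.23 and 10.30 in DMSO. Its groups both reached 10.11 after rounding, but did not overlap. The difference of -0.17 ± 0.05 passed (adjusted p = 0.0144), but not without 2iLIF replicate 1 (0.0576) or DMSO replicate 3 (0.0794). Ndufa1, a small membrane arm subunit, was higher by 0.23 ± 0.07 in 2iLIF than in 2i (adjusted p = 0.0377). That call was lost without 2iLIF replicate 2 (0.164), 2iLIF replicate 3 (0.175), 2i replicate 1 (0.156) or 2i replicate 3 (0.0967), and marginally without any PD03 array (0.0501 to 0.0515).

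Of the 7 assembly factors of complex I, 3 were higher and 1 lower in 2iLIF than in DMSO (57.1% passed, against 34.7% of all genes). Their median signal of 8.43 was below that of the accessory subunits (10.63), and their median SD between replicates was larger, at 0.067 against 0.041. Ndufaf4, which helps build the ubiquinone-binding module, had signals of 9.22, 9.34 and 9.44 in 2iLIF, 9.10, 9.12 and 9.09 in 2i, 9.31, 9.35 and 9.22 in CHIR, 8.75, 8.78 and 8.79 in PD03, and 8.96, 8.97 and 9.05 in DMSO. Every array with CHIR99021 lay above every array without it, and PD03 was lowest. The 2i group (mean 9.10) lay between CHIR (9.30) and DMSO (8.99), and its difference from DMSO did not pass. From CHIR it differed by -0.19, a call lost without any 1 of the 2i arrays or without CHIR replicate 1 or 2. CHIR was above DMSO by 0.30 ± 0.05 (adjusted p = 0.000381), PD03 was below DMSO by 0.22 (log2 difference -0.22 ± 0.05, adjusted p = 0.00544), and 2iLIF was above 2i by 0.23 ± 0.05 (adjusted p = 0.00564). The groups did not overlap in any of these.

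Ndufaf3, the partner of Ndufaf4 in the same assembly step, ran the opposite way. It stood at 9.83, 9.98 and 9.95 in 2iLIF, 10.18, 10.18 and 10.22 in 2i, 10.14, 9.98 and 10.22 in CHIR, 10.39, 10.33 and 10.39 in PD03, and 10.27, 10.35 and 10.37 in DMSO. The 2iLIF arrays were the low ones, met by CHIR replicate 2 at 9.98, with a difference of -0.41 ± 0.06 from DMSO (adjusted p = 1.97e-05) and -0.27 ± 0.06 from 2i (adjusted p = 0.00323). The difference of -0.22 ± 0.06 between CHIR and DMSO passed (adjusted p = 0.01), but not without CHIR replicate 2 (0.0553). Ndufaf2, which acts late in assembly, had 8.33, 8.50 and 8.33 in CHIR, 8.17, 8.18 and 8.35 in DMSO, 8.08, 8.09 and 8.16 in 2i and 7.98, 7.91 and 7.82 in PD03. PD0325901 went with a lower signal with or without CHIR99021: the difference was -0.33 ± 0.06 for PD03 against DMSO (adjusted p = 0.000791) and -0.28 ± 0.06 for 2i against CHIR (adjusted p = 0.00603), both with no overlap. In 2iLIF it was at 8.23, 8.31 and 8.25. Ndufaf5, another assembly factor, was higher by 0.39 ± 0.06 in 2iLIF than in DMSO (adjusted p = 3.98e-05) and by 0.24 ± 0.06 in 2iLIF than in 2i (adjusted p = 0.00976). The second call was lost without 2iLIF replicate 2 (0.0546) or 2iLIF replicate 3 (0.0538).

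Complex II also oxidises succinate in the citric acid cycle, and of its 4 subunits Sdha, Sdhb and Sdhd passed in at least 1 comparison and Sdhc in none. Sdhb, the iron-sulfur subunit, had signals of 10.89, 10.94 and 10.96 in 2iLIF, 10.77, 10.73 and 10.78 in 2i, 10.69, 10.67 and 10.64 in PD03, 10.54, 10.53 and 10.60 in CHIR, and 10.50, 10.49 and 10.56 in DMSO. It formed steps in that order, with CHIR and DMSO overlapping and no overlap between any other neighbours. The difference was 0.42 ± 0.04 between 2iLIF and DMSO (adjusted p = 1.42e-07), 0.17 ± 0.04 between 2iLIF and 2i (adjusted p = 0.00448), 0.20 ± 0.04 between 2i and CHIR (adjusted p = 0.00175) and 0.15 ± 0.04 between PD03 and DMSO (adjusted p = 0.00695). Sdhb was thus among the few members that were higher with PD0325901, both with and without CHIR99021, and with LIF.

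Sdhd, a membrane anchor of complex II, followed CHIR99021 instead. It had 11.57, 11.66 and 11.69 in 2iLIF, 11.58, 11.65 and 11.60 in 2i, 11.46, 11.39 and 11.56 in CHIR, 11.24, 11.30 and 11.29 in PD03, and 11.21, 11.30 and 11.27 in DMSO. PD03 and DMSO overlapped and lay below all other arrays. The difference was 0.34 ± 0.05 between 2i and PD03 (adjusted p = 9.23e-05) and 0.21 ± 0.05 between CHIR and DMSO (adjusted p = 0.00418). Sdha, the flavoprotein that holds the succinate site, had 11.75, 11.79 and 11.79 in 2iLIF, 11.79, 11.80 and 11.79 in 2i, 11.71, 11.72 and 11.76 in CHIR, 11.66, 11.64 and 11.67 in PD03, and 11.62, 11.61 and 11.60 in DMSO. Its range was narrow and its order was kept by every array of 2i, CHIR, PD03 and DMSO. The difference was 0.18 ± 0.03 between 2i and DMSO (adjusted p = 0.000297) and 0.14 ± 0.03 between 2i and PD03 (adjusted p = 0.00441). Sdhc, the second membrane anchor, stayed between 10.85 and 11.06 on all arrays and passed in none of the 8 comparisons.

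Among the assembly factors of complex II, Sdhaf1 and Sdhaf2 moved in opposite directions. Sdhaf1, which serves the iron-sulfur clusters of Sdhb, had 9.12 on each of the 3 DMSO arrays, 8.95, 8.87 and 8.94 in PD03, 8.75, 8.81 and 8.80 in CHIR, 8.74, 8.76 and 8.81 in 2i, and 8.68, 8.72 and 8.65 in 2iLIF. Signals were highest without any factor and lowest in 2iLIF. The difference from DMSO was -0.44 ± 0.04 for 2iLIF (adjusted p = 5.98e-08), -0.33 ± 0.04 for CHIR (adjusted p = 5.28e-06) and -0.20 ± 0.04 for PD03 (adjusted p = 0.000809), with no overlap. Sdhaf2, which attaches flavin to Sdha, had 9.67, 9.78 and 9.74 in CHIR against 9.40, 9.43 and 9.53 in DMSO, a difference of 0.28 ± 0.05 (adjusted p = 0.000747). It stood at 9.63, 9.75 and 9.76 in 2iLIF, 9.64, 9.64 and 9.68 in 2i, and 9.53, 9.42 and 9.56 in PD03. All arrays with CHIR99021 were again the high ones.

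Of the 9 complex III members, 6 were higher in 2iLIF than in DMSO, 7 in 2i than in PD03 and 3 in CHIR than in DMSO, and none was lower. These are 66.7%, 77.8% and 33.3% of the members, where 16.7%, 10.1% and 10.0% of all genes were higher. None of the 9 passed for PD03 against DMSO, 2i against CHIR or 2iLIF against 2i. The 7 became 4 without 2i replicate 2 or without PD03 replicate 2, and the 3 became 1, Uqcrh, without CHIR replicate 2, CHIR replicate 3 or DMSO replicate 2. Uqcrq, a small accessory subunit, had a difference of -0.08 between CHIR and DMSO, which did not pass. Uqcr10, a small accessory subunit, had 10.62, 10.71 and 10.77 in 2iLIF, 10.57, 10.58 and 10.63 in 2i, 10.47, 10.50 and 10.53 in CHIR, 10.39, 10.30 and 10.27 in PD03, and 10.34, 10.40 and 10.39 in DMSO. The difference was 0.33 ± 0.04 between 2iLIF and DMSO (adjusted p = 1.92e-05) and 0.27 ± 0.04 between 2i and PD03 (adjusted p = 0.000334), with no overlap.

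Uqcrh, the hinge protein that helps cytochrome c1 and cytochrome c meet, had 11.96, 12.06 and 12.05 in 2iLIF, 11.95, 11.97 and 12.02 in 2i, 11.90, 11.95 and 11.94 in CHIR, 11.76, 11.77 and 11.71 in PD03, and 11.74, 11.78 and 11.70 in DMSO. The 9 arrays with CHIR99021 did not reach down to the 6 without it. CHIR was above DMSO by 0.19 ± 0.04 (adjusted p = 0.00234) and 2i above PD03 by 0.23 ± 0.04 (adjusted p = 0.000378). The Rieske iron-sulfur protein Uqcrfs1 had 9.41, 9.41 and 9.43 in 2i against 9.14, 9.17 and 9.22 in PD03, a difference of 0.24 ± 0.04 (adjusted p = 0.000758). The core proteins Uqcrc1 and Uqcrc2 were higher by 0.19 ± 0.04 in 2i than in PD03 (adjusted p = 0.0017) and by 0.20 ± 0.03 in 2iLIF than in DMSO (adjusted p = 0.000105), respectively. Cyc1, the cytochrome c1 subunit, passed for 2i against PD03 (0.15 ± 0.04, adjusted p = 0.0176), but no longer did so without 2i replicate 2 (0.0501), 2i replicate 3 (0.0855), PD03 replicate 2 (0.0743) or PD03 replicate 3 (0.0687).

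Cycs passed in no comparison with the probe set of its highest signal, which ranged from 12.55 to 12.81 and gave a difference of 0.11 for CHIR against DMSO. Its other probe sets, with means of 9.66 and 6.42, each gave 0.45 for that comparison and 0.50 and 0.58 for 2iLIF against DMSO. With the mean of the probe sets in place of the highest, Cycs was higher by 0.34 in CHIR (adjusted p = 0.00176) and by 0.39 in 2iLIF (adjusted p = 0.000213). The probe sets for this gene therefore disagree, and which of them follows the transcript was not tested.

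The complex IV members include subunits made in all tissues and restricted isoforms. Of the 10 subunits of general use, Ndufa4 included, 9 were higher in 2iLIF than in DMSO and none lower, and the median difference was 0.191. Of the 8 restricted isoforms, 2 were higher and 1 lower, with a median of -0.044. The share that passed was 90% for the general subunits. For the restricted isoforms it was 37.5%, near the 34.7% of all genes. The median signal was 11.93 for the first class and 7.24 for the second, against 7.40 over all genes, and the difference between the classes was not tested. Cox6a2 (mean signal 6.83), Cox8c (6.77), Cox8b (6.34) and Cox7b2 (5.84) lay below the median gene and, with no detection calls, may be background. Cox5a, which lies on the matrix side, had 11.22, 11.31 and 11.30 in 2iLIF, 11.15, 11.16 and 11.19 in 2i, 11.01, 11.02 and 11.08 in CHIR, 11.07, 11.03 and 11.03 in PD03, and 10.93, 10.94 and 10.89 in DMSO. The single-inhibitor groups overlapped each other and lay between DMSO and 2i. The difference was 0.36 ± 0.04 between 2iLIF and DMSO (adjusted p = 6.95e-07) and 0.25 ± 0.04 between 2i and DMSO (adjusted p = 6.3e-05). With CHIR alone it was 0.12 ± 0.04 (adjusted p = 0.0303) and with PD03 alone 0.12 ± 0.04 (adjusted p = 0.0241). The CHIR call was lost without CHIR replicate 2 (0.0563), CHIR replicate 3 (0.134), DMSO replicate 1 (0.0589) or DMSO replicate 3 (0.0962), and the PD03 call without PD03 replicate 1 (0.0978), PD03 replicate 3 (0.0546) or DMSO replicate 3 (0.092).

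Cox4i1, the general form of subunit 4, had 11.57, 11.61 and 11.55 in 2iLIF against 11.29, 11.40 and 11.33 in DMSO, a difference of 0.24 ± 0.05 (adjusted p = 0.000511). Its lung and low-oxygen isoform Cox4i2 had a difference of -0.12 ± 0.05, which did not pass. Cox6b1, the general form of another subunit, was higher in 2iLIF than in DMSO by 0.23 ± 0.04 (adjusted p = 7.96e-05) and in 2i than in PD03 by 0.17 ± 0.04 (adjusted p = 0.00224).

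Cox6b2, the testis form, had 10.34, 10.28 and 10.42 in 2iLIF, 10.30, 10.33 and 10.33 in 2i, 10.23, 10.20 and 10.24 in CHIR, 10.08, 10.07 and 9.99 in PD03, and 10.32, 10.27 and 10.13 in DMSO. Only the cells with PD0325901 and without CHIR99021 were low. PD03 was below DMSO by 0.19 (log2 difference -0.19 ± 0.05, adjusted p = 0.0115), a call lost without PD03 replicate 3 (0.0628) or DMSO replicate 1 (0.0568). Between 2i and PD03 the difference was 0.28 ± 0.05 (adjusted p = 0.000726), and it passed under every alternative. The interaction of the inhibitors, (2i minus PD03) minus (CHIR minus DMSO), was 0.29 ± 0.07 (adjusted p = 0.0435). Cox6b2 was the only member of the 95 past the threshold for the interaction, where 2.04% of all genes passed (0.933% higher and 1.10% lower). Leaving out any array of 2i, CHIR or PD03, or DMSO replicate 1 or 2, ended that call, with adjusted p-values between 0.0668 and 0.126, as did leaving out 2iLIF replicate 1 (0.0523).

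Cox7a1 and Ndufa4l2 had the largest differences in the set. Cox7a1, the heart and skeletal muscle form of subunit 7a, had 10.03, 10.15 and 10.19 in 2iLIF, 9.80, 9.83 and 9.90 in 2i, 9.89, 9.87 and 9.92 in PD03, 9.54, 9.36 and 9.37 in DMSO, and 9.07, 9.38 and 9.21 in CHIR. The arrays with PD0325901 were all above those without it. PD03 exceeded DMSO by 0.47 ± 0.07 (adjusted p = 0.00013) and 2i exceeded CHIR by 0.62 ± 0.07 (adjusted p = 1.91e-05). For 2iLIF against DMSO the difference was 0.70 ± 0.07 (adjusted p = 5.71e-07), a 1.63-fold higher signal. CHIR alone gave -0.20 ± 0.07, which did not pass, and CHIR and DMSO overlapped. The general form Cox7a2 was higher by 0.20 ± 0.05 in 2iLIF than in DMSO (adjusted p = 0.00276), and passed in neither PD03 against DMSO nor 2i against CHIR.

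Ndufa4l2, a relative of Ndufa4 that is induced at low oxygen in other cells, had 8.30, 8.30 and 8.19 in 2iLIF, 8.30, 8.40 and 8.08 in 2i, 7.99, 8.21 and 8.13 in PD03, 7.75, 7.91 and 7.69 in CHIR, and 7.62, 7.37 and 7.36 in DMSO. All groups were above DMSO without overlap, and those with PD0325901 most. The difference from DMSO was 0.81 ± 0.09 for 2iLIF (adjusted p = 1.81e-06), 0.81 ± 0.09 for 2i (adjusted p = 3.73e-06) and 0.66 ± 0.09 for PD03 (adjusted p = 5.59e-05). For CHIR it was 0.33 ± 0.09 (adjusted p = 0.0135), lost without CHIR replicate 2 (0.0763), DMSO replicate 2 (0.0607) or DMSO replicate 3 (0.0546). Ndufa4 itself, once counted to complex I and now to complex IV, had 11.79, 11.85 and 11.98 in 2iLIF against 11.52, 11.55 and 11.49 in DMSO (0.35 ± 0.06, adjusted p = 0.000108), and 11.50, 11.51 and 11.56 in PD03.

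Cox7a2l, which takes part in joining complexes III and IV, had 9.46, 9.62 and 9.60 in 2iLIF, 9.52, 9.49 and 9.52 in 2i, 9.31, 9.42 and 9.41 in CHIR, 9.24, 9.26 and 9.20 in PD03, and 9.25, 9.25 and 9.16 in DMSO. It was high with CHIR99021 and differed by 0.28 ± 0.05 between 2i and PD03 (adjusted p = 0.000504). Of the other forms, Cox6a1 was higher by 0.18 ± 0.04 in 2iLIF than in DMSO (adjusted p = 0.00272) and Cox8a by 0.15 ± 0.04 (adjusted p = 0.00314), while their restricted relatives Cox6a2 and Cox8c gave -0.10 and -0.02 and passed in no comparison. Cox5b passed for 2iLIF against DMSO at 0.11 ± 0.03 (adjusted p = 0.0193), but not without 2iLIF replicate 1 (0.0637), DMSO replicate 1 (0.0571) or DMSO replicate 3 (0.0523). Cox7b2 was lower in 2iLIF than in DMSO (-0.24 ± 0.05, adjusted p = 0.00125). Its low signal is given above.

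**Figure D4:**
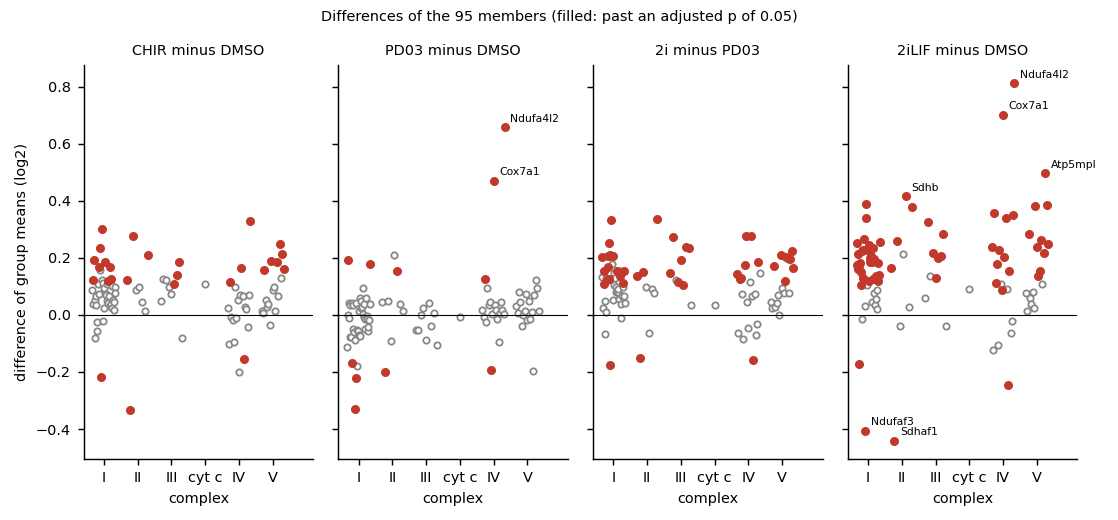
Log2 differences of the 95 members in 4 comparisons (panels), by complex (horizontal axis), with filled points for genes past an adjusted p of 0.05 and open points for the others. Points with a size over 0.4 are named. Nearly all points of 2iLIF minus DMSO lie above 0 (61 past the threshold), while those of PD03 minus DMSO lie on both sides (6 and 5 past it), with Ndufa4l2 at 0.66 and Cox7a1 at 0.47.

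In complex V, 10 of 17 members were higher in 2iLIF than in DMSO and none was lower. They were 1 of 5 subunits of the catalytic F1 part, 4 of 4 of the peripheral stalk and 5 of 8 of the membrane part. That is 58.8% of complex V but 20%, or 1 gene, of the F1 part, where 16.7% of all genes were higher. Among genes with a mean signal of at least 9.64, a level that all 5 F1 members reached, 29.0% were higher. The catalytic subunits Atp5a1 and Atp5b passed in no comparison. Atp5b had signals of 13.07 to 13.13 on all arrays, where the highest value of the whole table is 13.99. Atp5c1, the rotating shaft of F1, had 12.66, 12.67 and 12.64 in 2iLIF, 12.66, 12.62 and 12.61 in 2i, 12.48, 12.54 and 12.57 in CHIR, 12.45, 12.43 and 12.49 in PD03, and 12.35, 12.36 and 12.41 in DMSO. It differed by 0.28 ± 0.04 between 2iLIF and DMSO (adjusted p = 7.73e-06), by 0.17 ± 0.04 between 2i and PD03 (adjusted p = 0.00228) and by 0.16 ± 0.04 between CHIR and DMSO (adjusted p = 0.00454), with no overlap.

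The stalk subunit Atp5o, which ties the stalk to F1, had 11.24, 11.34 and 11.30 in 2iLIF, 11.21, 11.18 and 11.30 in 2i, 11.11, 11.11 and 11.16 in CHIR, 10.99, 11.03 and 10.99 in PD03, and 10.85, 10.91 and 10.98 in DMSO. The groups followed each other in that order, with overlap only between 2iLIF and 2i. The difference was 0.39 ± 0.04 between 2iLIF and DMSO (adjusted p = 2.08e-06), 0.23 ± 0.04 between 2i and PD03 (adjusted p = 0.00122) and 0.21 ± 0.04 between CHIR and DMSO (adjusted p = 0.00168). Atp5mpl, a small membrane subunit, had the largest difference of complex V between 2iLIF and DMSO, 0.50 ± 0.05 (adjusted p = 2.14e-06). Its signals were 11.44, 11.56 and 11.62 in 2iLIF, 11.31, 11.39 and 11.38 in 2i, 11.11, 11.10 and 11.30 in CHIR, 11.15, 11.18 and 11.17 in PD03, and 10.99, 11.08 and 11.06 in DMSO. Both groups with the pair of inhibitors were above all others.

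Atp5g1, Atp5g2 and Atp5g3 encode precursors of the same mature subunit c, the protein of the rotor ring, and Atp5g3 alone passed. Its signals were 12.19, 12.22 and 12.23 in 2iLIF, 12.07, 12.11 and 12.16 in 2i, 12.02, 12.01 and 12.04 in CHIR, 11.94, 11.91 and 11.87 in PD03, and 11.80, 11.89 and 11.81 in DMSO. Every step down was free of overlap except that from PD03 to DMSO. The difference was 0.38 ± 0.04 between 2iLIF and DMSO (adjusted p = 4.05e-07), 0.21 ± 0.04 between 2i and PD03 (adjusted p = 0.000619) and 0.19 ± 0.04 between CHIR and DMSO (adjusted p = 0.00136). Atp5g1 stayed between 12.41 and 12.56 and Atp5g2 between 12.83 and 12.95 on all arrays, with differences of 0.08 ± 0.03 (adjusted p = 0.0771) and 0.02 ± 0.03 (adjusted p = 0.646) between 2iLIF and DMSO. The difference between the genes was not itself tested. Other probe sets gave -0.01 between 2iLIF and DMSO for Atp5g1 (mean 7.65) and -0.09 and 0.05 for Atp5g2 (means 9.64 and 9.32). The Atp5g2 set with the mean of 9.32 also gave 0.13 for both 2i and PD03 against DMSO. Which set follows the transcript was not tested. The promoters printed for these genes also differ in their letters: an estrogen-related receptor match in Atp5g3, an NRF1 match in Atp5g2 and neither in Atp5g1 before the start.

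**Figure D5:**
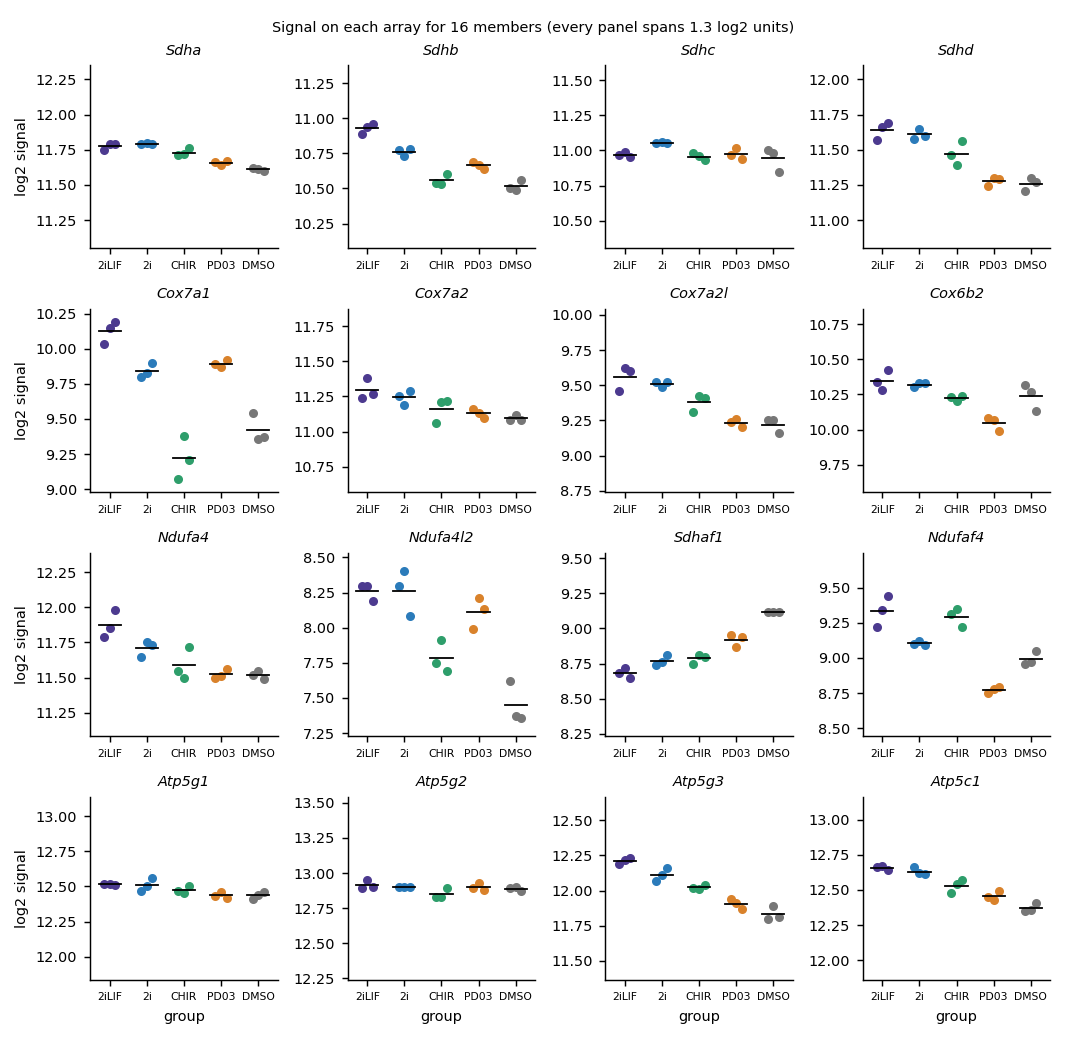
Log2 signal (vertical axis) on each array (points) by group for 16 members, with a line at the group mean and the same span in every panel. Every array with CHIR99021 lies above every array without it for Sdhd, Atp5g3 and Cox7a2l, while for Atp5c1 CHIR replicate 1 (12.48) meets PD03 replicate 3 (12.49). Cox7a1 and Sdhb are higher on every array with PD0325901 than on any without it, Sdhaf1 is highest in DMSO (9.12 on all 3 arrays), and Sdhc, Atp5g1 and Atp5g2 are level.

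Other genes of mitochondrial energy metabolism were read from the same fit. The mitochondrial ribosome makes the mitochondrially encoded subunits, and 77 genes with symbols that begin with Mrpl or Mrps stood for it. Of these, 31 were higher and 6 lower in 2iLIF than in DMSO, with a median of 0.107. Together that is 48.1%, against 34.7% of all genes. The 31 became 20 without 2iLIF replicate 3 or DMSO replicate 1. Between 2i and PD03, 32 were higher and 1 lower (42.9% passed, against 19.5% of all genes, 10.1% higher and 9.44% lower). Between PD03 and DMSO, 17 were lower in PD03 and none higher, with a median of -0.084, where 8.15% of all genes were lower. The 17 became 6, 8 and 6 without PD03 replicate 2, PD03 replicate 3 and DMSO replicate 3, and the share of all genes in those fits is not given here. With all arrays, 63 of the 77 differences were below 0. The PD03 arrays lay wholly below those of DMSO for 34 genes and wholly above for 1 (31.4% of all genes in either direction). Mrps36, listed by its symbol alone, was higher by 0.40 ± 0.04 in 2iLIF than in DMSO (adjusted p = 1.46e-06). Mrps9 was higher by 0.36 ± 0.05 (adjusted p = 5.24e-05) and Mrps24 lower (-0.42 ± 0.04, adjusted p = 6.02e-07) in that comparison. Mrps27 was lower in PD03 than in DMSO (-0.25 ± 0.04, adjusted p = 0.0006).

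Of 16 genes of the citric acid cycle and pyruvate dehydrogenase, 8 were higher and 1 lower in 2iLIF than in DMSO (56.2% passed, against 34.7% of all genes). Pdha1, the subunit of pyruvate dehydrogenase that first takes up pyruvate, was higher by 0.24 ± 0.04 in both CHIR against DMSO (adjusted p = 0.000231) and 2i against PD03 (adjusted p = 0.000255). Idh2, the mitochondrial NADP-dependent isocitrate dehydrogenase, was higher with PD0325901, by 0.29 ± 0.04 in PD03 against DMSO (adjusted p = 2.24e-05) and 0.32 ± 0.04 in 2i against CHIR (adjusted p = 1.98e-05). Of 32 assembly factors outside the set, 11 were higher and 2 lower in 2iLIF than in DMSO, where 16.7% of all genes were higher and 18.0% lower. With both directions pooled, 40.6% passed, near the 34.7% of all genes, but the calls leaned to the higher side. Between 2i and PD03, 8 were higher and none lower (25% passed, against 19.5% of all genes, 10.1% higher and 9.44% lower). Coa5, which acts on complex IV, was higher by 0.36 ± 0.04 in CHIR than in DMSO (adjusted p = 2.2e-06), and Taco1, an activator of translation for complex IV, by 0.32 ± 0.04 (adjusted p = 5.51e-05).

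Of 12 genes of ubiquinone synthesis, 3 were higher and 2 lower in 2iLIF than in DMSO. The pooled share of 41.7% is also near the 34.7% of all genes (16.7% higher and 18.0% lower). The 3 became 1 without 2iLIF replicate 3. Coq8a fell in that comparison (-0.37 ± 0.04, adjusted p = 5.98e-06) and Coq5, a methyltransferase of the pathway, was higher (0.20 ± 0.04, adjusted p = 0.00081). Between 2i and PD03, 5 of the 12 were higher and none lower (41.7% passed, against 19.5% of all genes, 10.1% higher and 9.44% lower). Of 7 carrier and uncoupling genes, only the adenine nucleotide carrier Slc25a4 passed, with 0.45 ± 0.04 in 2iLIF against DMSO (adjusted p = 1.35e-07). Of 18 nuclear regulators, 5 were higher and 2 lower in 2iLIF than in DMSO, again a pooled share (38.9%) near that of all genes (34.7%). By direction, 16.7% of all genes were higher and 18.0% lower. Lrpprc, which stabilises mitochondrial messenger RNA, was higher by 0.19 ± 0.05 in CHIR than in DMSO (adjusted p = 0.00738) and by 0.25 ± 0.05 in 2i than in PD03 (adjusted p = 0.00105), Ppargc1b, a coactivator, was higher by 0.25 ± 0.05 in 2iLIF than in DMSO (adjusted p = 0.00085), and Tfb1m was lower (-0.22 ± 0.03, adjusted p = 8.06e-05). Gabpa, a subunit of GABP, was higher by 0.20 ± 0.04 in 2iLIF than in DMSO (adjusted p = 0.000749). Nrf1, which encodes NRF1, and Esrra, an estrogen-related receptor gene, passed in none of the 8 comparisons. COX2 and ND3, found by their place on the mitochondrial chromosome after the values were seen, ranged from 12.85 to 13.07 and from 13.01 to 13.19 and passed in no comparison.

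One known target gene of each factor was read as a check on the groups. Axin2, a target of beta-catenin, had means of 9.36, 9.19 and 9.31 in 2iLIF, 2i and CHIR against 7.66 in PD03 and 7.86 in DMSO. Dusp6, a target of ERK, had means of 9.48, 9.29 and 9.34 in the groups with PD0325901 against 10.41 in CHIR and 11.06 in DMSO, so CHIR was also below DMSO. Socs3, a target of STAT3, had a mean of 9.00 with LIF and of 7.36 to 7.77 without it.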

How the data were processed

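RNA of 15 samples was hybridised to single-colour Affymetrix whole-transcript arrays, from 300 ng of total RNA per sample, per the labels' protocols. The deposited values are log2 signals per probe set, made by the authors with RMA, per the submitters' processing notes; its version and the genome build of the array annotation are not given in the sources used here. Values of the 34760 probe sets lay between 3.74 and 13.99, with array medians of 6.98 to 7.06. RMA equalises the distributions of the arrays and so hides a shift common to most genes.

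The platform annotation gave 1 symbol for 21640 probe sets, several for 1321, which named no gene, and none for 11799. Where a gene had several probe sets (19 of the 95 members), the set with the highest mean over 15 arrays stood for it. All arrays entered 1 limma 3.58.1 fit in R 4.3.3, with a mean per group for the 5 groups (lmFit and eBayes, two-sided, threshold 0.05, no filter on level, no detection calls). The number of arrays limits the precision: the median SE of a difference was 0.0509. The same replicate numbers did not pair arrays: over 30 same-number pairs of groups, deviations correlated from -0.36 to 0.34, and 10 were over 0.1.

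Alternatives were a replicate block, centring arrays on their median, leaving out genes with a mean under 6, the mean of a gene's probe sets, eBayes with trend and robust, the 2 groups of a comparison alone (4 for the interaction), and leaving out each array. The members and all gene lists were chosen with earlier results of these data known. Genes were named by rule: the 4 highest and 4 lowest members past the threshold in a comparison, the largest of each complex, and a fixed list of core subunits and isoform pairs; the promoters shown and the genes listed by array order were added after values were seen. Promoter sequences are RefSeq's (GRCm38.p6).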

Additional observations from a re-analysis of the deposited data

Results flagged for a closer look

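The effect of CHIR99021 on Cox6b2 differed between cells with and without PD0325901: the interaction was 0.29 on the log2 scale, with an adjusted p of 0.0435 from limma. It held on few settings: 14 of 21 alternatives ended the call. Groups of 3 arrays were too small for a search for outlying arrays.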

How the results depend on the processing

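The direction of the median difference of the members was kept in all 8 comparisons under each alternative that was run. Centring each array on its median, which moved an array by at most 0.047, changed that median to 0.107 for CHIR minus DMSO, 0.200 for 2iLIF minus DMSO, 0.005 for 2i minus CHIR, 0.133 for 2i minus PD03 and 0.075 for 2iLIF minus 2i. With that centring 5 members passed in 2i minus CHIR and 0 in the interaction, and 2i minus PD03 had 43 higher and 0 lower. With trend and robust settings 17 passed in 2i minus CHIR, 3 in the interaction and 13 in 2iLIF minus 2i. With only the groups of the comparison, 2i minus CHIR had 7 and CHIR minus DMSO 17. The cause was not tested in any of these.

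With the replicate block the counts were 25 for CHIR minus DMSO, 12 for PD03 minus DMSO, 43 for 2i minus DMSO, 66 for 2iLIF minus DMSO, 9 for 2i minus CHIR, 40 for 2i minus PD03, 0 for the interaction and 8 for 2iLIF minus 2i. The numbers do not pair the arrays, and 4 of 15 arrays correlated best with their own number.

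Leaving out each array gave 13 to 29 members past the threshold in CHIR minus DMSO, 9 to 12 in PD03 minus DMSO, 36 to 47 in 2i minus DMSO, 56 to 67 in 2iLIF minus DMSO, 5 to 13 in 2i minus CHIR, 25 to 47 in 2i minus PD03, 0 to 1 in the interaction and 4 to 12 in 2iLIF minus 2i. Of the higher calls, 48 of 61 in 2iLIF minus DMSO, 26 of 42 in 2i minus DMSO, 18 of 40 in 2i minus PD03 and 10 of 24 in CHIR minus DMSO passed under all 21 alternatives. With 3 arrays a group, differences under about 0.1 were rarely called. Probes can also bind near-identical copies of these genes, which was not tested.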

Other observations

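Some probe sets matched several symbols and stood for no gene. They cover Cox7c, Ndufb4 and a second set for Ndufs5, which were not used for the members.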
